A study of Homo sapiens with 16 samples.

Results

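The genes described here are 45 genes of mitosis and the kinetochore, taken by symbol from the deposited expression table of a study of HCT116 cells, an established human colon cancer cell line. All 45 were found among the 22916 genes of that table, and all 45 had enough counts to be tested. They were read in 8 classes by role, which were 3 cyclins, 8 kinases and CDC25 phosphatases, 6 kinesins, 7 kinetochore genes and 6 spindle checkpoint genes, with 3 genes of the chromosomal passenger complex, 9 genes of the spindle, sister separation and cytokinesis, and 3 genes of chromosome structure and transcription. RNA was sequenced from 4 groups of 4 libraries. Truncation knockdown cells carried a shortened Rpn10 and received siRNA against the deubiquitinase OTUD5, and truncation scramble cells carried the same edit and received a scrambled siRNA. WT knockdown cells had unedited Rpn10 and received the OTUD5 siRNA, and WT scramble cells had unedited Rpn10 and received the scrambled siRNA. PSMD4 encodes Rpn10, which lets the proteasome bind ubiquitin chains, and the edit removes the motif with which Rpn10 holds ubiquitin. The OTUD5 siRNA was a mix of 4 siRNAs, and every group, controls included, was transfected at 50 nM for 48 hours, so no group shows cells without siRNA. It is not stated in the labels whether the edited line is 1 clone, or whether the biological replicates are separate cultures. An effect of the truncation, also in the interaction with knockdown, therefore cannot be told apart from other differences between edited and WT cells. P-values reflect how far libraries of the same group lie apart, in an estimate shared by the 4 groups.

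Cells enter mitosis when CDK1, held by a cyclin partner and freed of inhibitory phosphate by CDC25 phosphatases, becomes active, and Polo and Aurora kinases then build the spindle. Microtubules attach to chromosomes at the kinetochore, a protein structure on centromeric chromatin, and the spindle checkpoint holds the anaphase-promoting complex, a ubiquitin ligase, until all kinetochores are attached. Once released, that ligase sends securin and the mitotic cyclins to the proteasome, separase cuts the rings that hold sister chromatids together, and the cell divides. The RNA of many of these genes is high in G2 phase and mitosis and low in G1 phase, under repression by the DREAM complex and activation by MYBL2 and FOXM1, and p53 acts on it through CDKN1A, an inhibitor of cyclin-dependent kinases.

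Levels below are the authors' deposited TMM-scaled CPM, which are counts relative to a library size corrected for composition by a trimmed mean, from libraries of 28777244 to 29645663 counts. OTUD5 stood at 20.7 ± 1.49 CPM (SD, n = 4) in truncation knockdown, 94.9 ± 2.27 CPM in truncation scramble, 20.02 ± 2.05 CPM in WT knockdown and 88.5 ± 3.18 CPM in WT scramble cells. The truncation knockdown libraries were grouped by their library names and treatment labels, since their titles say scramble, and their OTUD5 level lay in the range of the WT knockdown libraries. A count over all of PSMD4 does not show the missing motif, so the genotype labels were not checked by it. Of the colon epithelium markers, EPCAM, KRT8, KRT18, KRT19, CDH1 and CDX2 were present, KRT20 was near 1 CPM, VIL1 was near 0 and CDX1 had at most 2 counts in a library. Leukocyte and fibroblast markers were mostly under 1 CPM, with COL1A1 at group means of 33.6 to 50.5 CPM and PTPRC at 11.65 CPM in WT scramble replicate 4, the exceptions. More genes had at least 1 count in WT knockdown replicate 3, 32264, than in any other library (25626 to 27765).

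Truncation cells with OTUD5 knockdown had less RNA of almost every mitosis gene than any other group. Against WT scramble cells, 42 of the 45 genes fell and none rose, with a median log2 fold change of -0.63, against 0.0016 over all 17104 genes tested. The background for that count is that 33.5% of all tested genes fell in the same comparison and 33.2% rose. Calls here and below are from edgeR's quasi-likelihood test at an adjusted p under 0.05, and values after ± are its standard errors unless named as a standard deviation (SD), with n = 4 libraries per group. Every one of the 45 estimates was below 0, so no gene was higher at an unadjusted p either, and DESeq2 and limma voom also called none higher. The largest falls were those of KIF20A (-1.69 ± 0.06), a kinesin of the central spindle, AURKB (-1.65 ± 0.06), the Aurora kinase of the passenger complex, and ESPL1 (-1.59 ± 0.07), which encodes separase. These genes kept 31%, 32% and 33.3% of their WT scramble level by the fitted fold changes. The genes not called were KIF4A (-0.11 ± 0.06), KIF18A (-0.15 ± 0.07) and PRC1 (-0.28 ± 0.25). KIF18A was called lower without any 1 of truncation knockdown replicate 3 (adjusted p = 0.0375), WT scramble replicate 1 (0.0119) and WT scramble replicate 2 (0.0496). The members' share of all counts was 0.416 to 0.441% in truncation knockdown, 0.540 to 0.571% in truncation scramble, 0.608 to 0.650% in WT knockdown and 0.643 to 0.685% in WT scramble libraries. The WT groups overlapped each other and the rest did not. These are bulk samples, in which fewer cells in G2 phase or mitosis and less RNA per such cell cannot be told apart.

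Truncation cells without knockdown had less RNA of most of the genes than WT cells, and knockdown in WT cells lowered some of them. In scramble cells, truncation against WT gave 33 genes lower and 1 higher, with backgrounds of 22.4% lower and 21.6% higher over all tested genes, and a member median of -0.24 against -0.021 for all genes. In WT cells, knockdown against scramble gave 15 genes lower and 3 higher, with backgrounds of 25.1% and 25.2%, and a member median of -0.068. The 15 of 45 members lower after knockdown in WT cells are a share not far above that background. These comparisons share the WT scramble libraries, so their values are given side by side and not as independent results. The median of -0.068 moved to -0.12 without WT knockdown replicate 2 and to -0.045 without WT scramble replicate 3, and the count of genes higher became 5 without WT knockdown replicate 4, with PLK4 and CENPE added. Without WT knockdown replicate 2, KIF23 (adjusted p = 0.0131), MAD2L1 (0.0317), CDCA8 (0.0157) and TPX2 (0.0291) were added to the genes lower. In truncation cells, knockdown against scramble gave 41 genes lower and none higher (backgrounds 28.1% lower and 28.7% higher), with a member median of -0.36. In knockdown cells, truncation against WT gave 42 lower and none higher (backgrounds 23.6% lower and 21.9% higher), with a median of -0.54. In both of these comparisons all 45 estimates were below 0, and DESeq2 and limma voom called no gene higher. The deposited levels of the 4 libraries of a group lay wholly below those of the other group for 42 genes in truncation knockdown against WT scramble and for 29 in the truncation comparison of scramble cells. That held for 14 genes in the knockdown comparison of WT cells, 39 in that of truncation cells and 43 in the truncation comparison of knockdown cells. Over all tested genes such separation downwards was seen in 31.4%, 20.5%, 21.6%, 29.3% and 18.8%, in the same order.

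**Figure D1:**
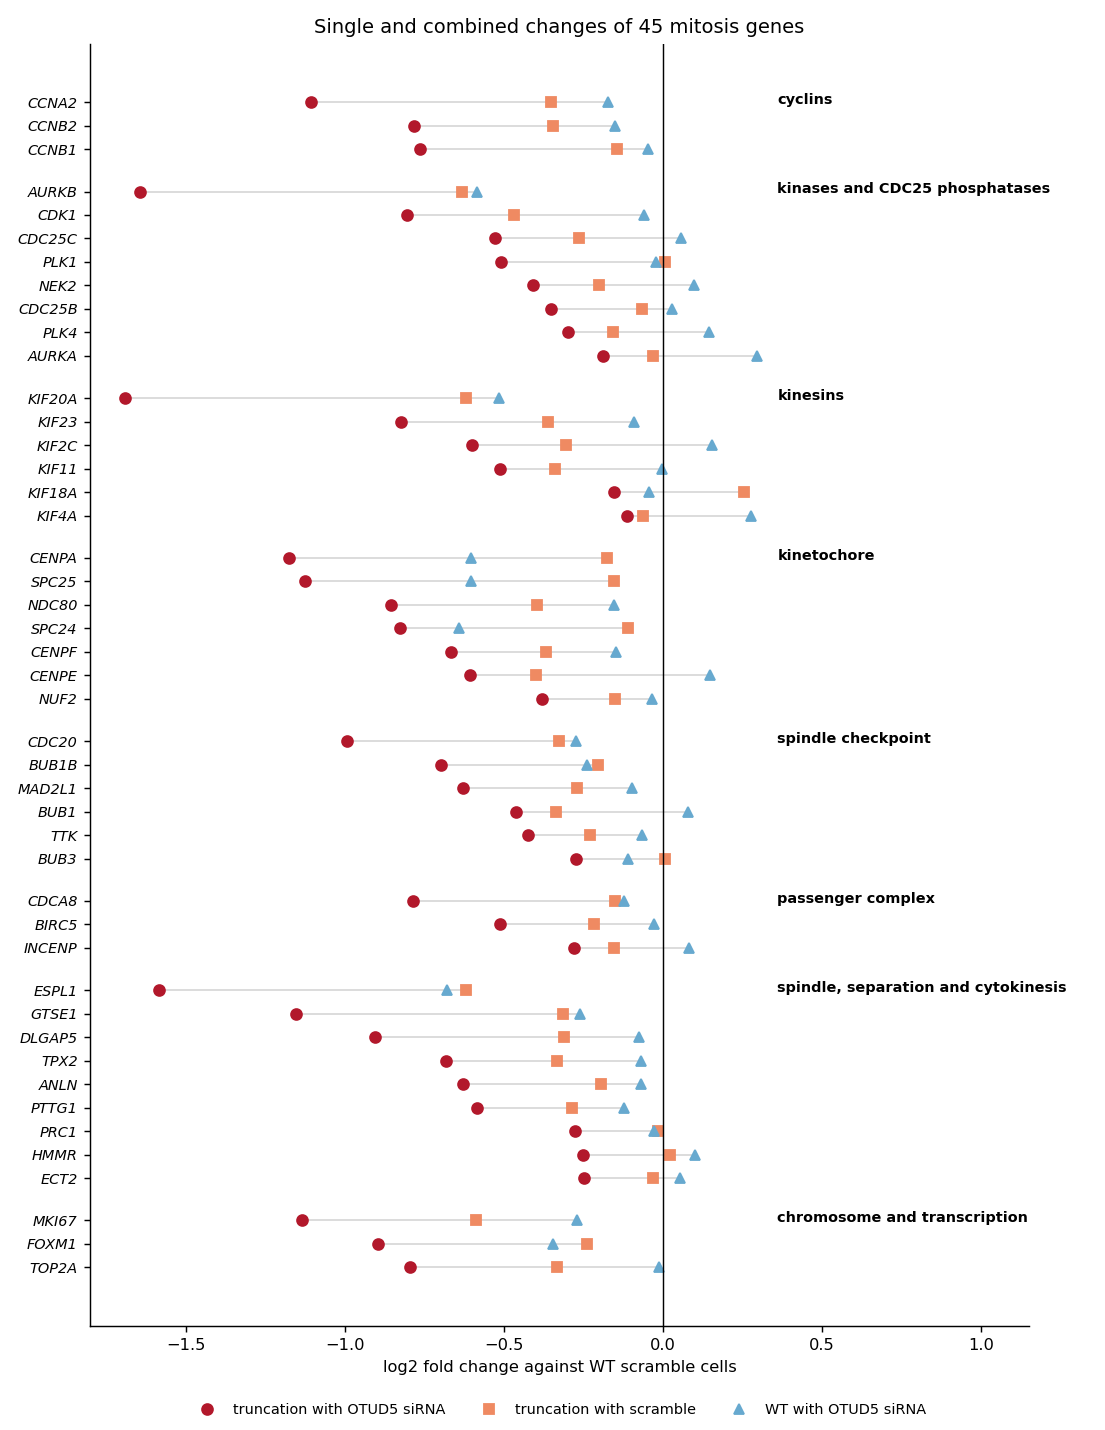
Fitted log2 fold change of each of the 45 genes against WT scramble cells, by class, with circles for truncation cells with OTUD5 siRNA, squares for truncation cells with scramble and triangles for WT cells with OTUD5 siRNA. The circles lie left of 0 for every gene, from -1.69 for KIF20A to -0.11 for KIF4A, and the called rises are the triangles of AURKA, KIF4A and KIF2C and the square of KIF18A.

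The letters around the starts of these genes were also read. The genes were listed by their role, so motif shares among them describe the list and not its response in these data. RefSeq start windows (GRCh38.p14, 250 bases before to 50 after a start) were at hand for 39 of the 45 genes, not for AURKA, BUB3, TTK, BIRC5, TPX2 and FOXM1. The cell cycle genes homology region, CHR, is bound by the DREAM complex and by MYBL2 and FOXM1 complexes, and was searched as TTTGAA or TTCGAA on both strands. The CCAAT box, bound by NF-Y, was searched as CCAAT on both strands, and its letters can overlap those of CHR. CHR letters were in the windows of 30 of 39 genes (76.9%), against 19.5% of 27305 genes with a window. In the last 60 bases before the start they were found for 48.7% of the members and 3.63% of all genes. CCAAT letters were in 84.6% of the members and 39.7% of all genes, and both motifs in 64.1% and 7.85%. An E2F site, searched as TTTGGCGC, TTTGCCGC, TTTCGCGC or TTTCCCGC on both strands, was matched in 5.13% of the members and 3.99% of all genes. A match is a run of letters and not a measured binding site. The genes without TTTGAA or TTCGAA were AURKB, CCNA2, CCNB1, CENPE, KIF20A, KIF2C, NEK2, PTTG1 and SPC24, and some of these were among the genes that fell most. No other letters were searched for CHR, so this group depends on the search, and a part of CHR in the falls was not tested. The median log2 fold change of truncation knockdown against WT scramble cells was -0.65 for the 30 genes with CHR letters and -0.76 for the 9 without, a description with no test. In the interaction of knockdown with genotype these medians were -0.31 and -0.43.

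The 150 bases before the RefSeq start are shown for 8 genes, with CHR and CCAAT letters of either strand in capitals and the rest in lower case, 5′ to 3′ on the gene's strand. The first 6 were picked from genes with CHR letters in this stretch, so their arrangement does not describe all members. ANLN, BUB1B, NDC80 and NUF2 have CHR letters and no CCAAT match in their windows. The last pair shows KIF20A, which fell most and has no TTTGAA or TTCGAA, and KIF18A, which has both CHR and CCAAT letters and rose with the truncation in scramble cells. They are CCNB2 at chr15:59104996-59105145 on the plus strand, CDK1 at chr10:60778328-60778477 on the plus strand, KIF23 at chr15:69414199-69414348 on the plus strand and CENPA at chr2:26785906-26786055 on the plus strand. Next come CDC20 at chr1:43358831-43358980 on the plus strand, ESPL1 at chr12:53268149-53268298 on the plus strand, KIF20A at chr5:138178962-138179111 on the plus strand and KIF18A at chr11:28108157-28108306 on the minus strand.
CCNB2: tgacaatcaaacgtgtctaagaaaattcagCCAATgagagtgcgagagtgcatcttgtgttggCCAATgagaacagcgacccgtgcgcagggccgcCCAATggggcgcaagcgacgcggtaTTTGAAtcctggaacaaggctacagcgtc
CDK1: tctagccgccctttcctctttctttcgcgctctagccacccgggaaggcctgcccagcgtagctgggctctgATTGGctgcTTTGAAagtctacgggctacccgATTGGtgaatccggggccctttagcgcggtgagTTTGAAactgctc
KIF23: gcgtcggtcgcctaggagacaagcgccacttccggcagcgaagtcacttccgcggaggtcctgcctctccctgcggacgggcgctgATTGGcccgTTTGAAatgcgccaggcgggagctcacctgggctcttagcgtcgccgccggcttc
CENPA: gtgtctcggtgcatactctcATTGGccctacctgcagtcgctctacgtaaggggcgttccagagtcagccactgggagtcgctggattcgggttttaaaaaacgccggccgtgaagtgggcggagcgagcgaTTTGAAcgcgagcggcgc
CDC20: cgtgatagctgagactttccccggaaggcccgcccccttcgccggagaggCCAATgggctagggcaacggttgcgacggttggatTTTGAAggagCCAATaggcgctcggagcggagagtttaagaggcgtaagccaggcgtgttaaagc
ESPL1: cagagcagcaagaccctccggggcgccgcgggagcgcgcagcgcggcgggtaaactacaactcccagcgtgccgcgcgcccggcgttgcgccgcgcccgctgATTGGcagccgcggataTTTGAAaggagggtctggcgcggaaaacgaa
KIF20A: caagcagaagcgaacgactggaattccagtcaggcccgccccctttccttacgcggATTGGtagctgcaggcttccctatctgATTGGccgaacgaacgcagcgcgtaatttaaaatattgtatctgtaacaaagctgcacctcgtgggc
KIF18A: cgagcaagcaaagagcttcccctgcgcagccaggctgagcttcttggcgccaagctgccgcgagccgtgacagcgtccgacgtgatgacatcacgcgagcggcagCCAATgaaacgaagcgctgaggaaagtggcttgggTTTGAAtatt
In each of the first 6 genes the TTTGAA nearest the start has a CCAAT match upstream of it, written CCAAT or as its reverse complement ATTGG. The spacing differs between them. In CDC20 the TTTGAA begins at -65 from the start, and another CCAAT match, at -55, lies between it and the start. In CENPA the CCAAT match begins at -130 and the TTTGAA at -18.

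**Figure D2:**
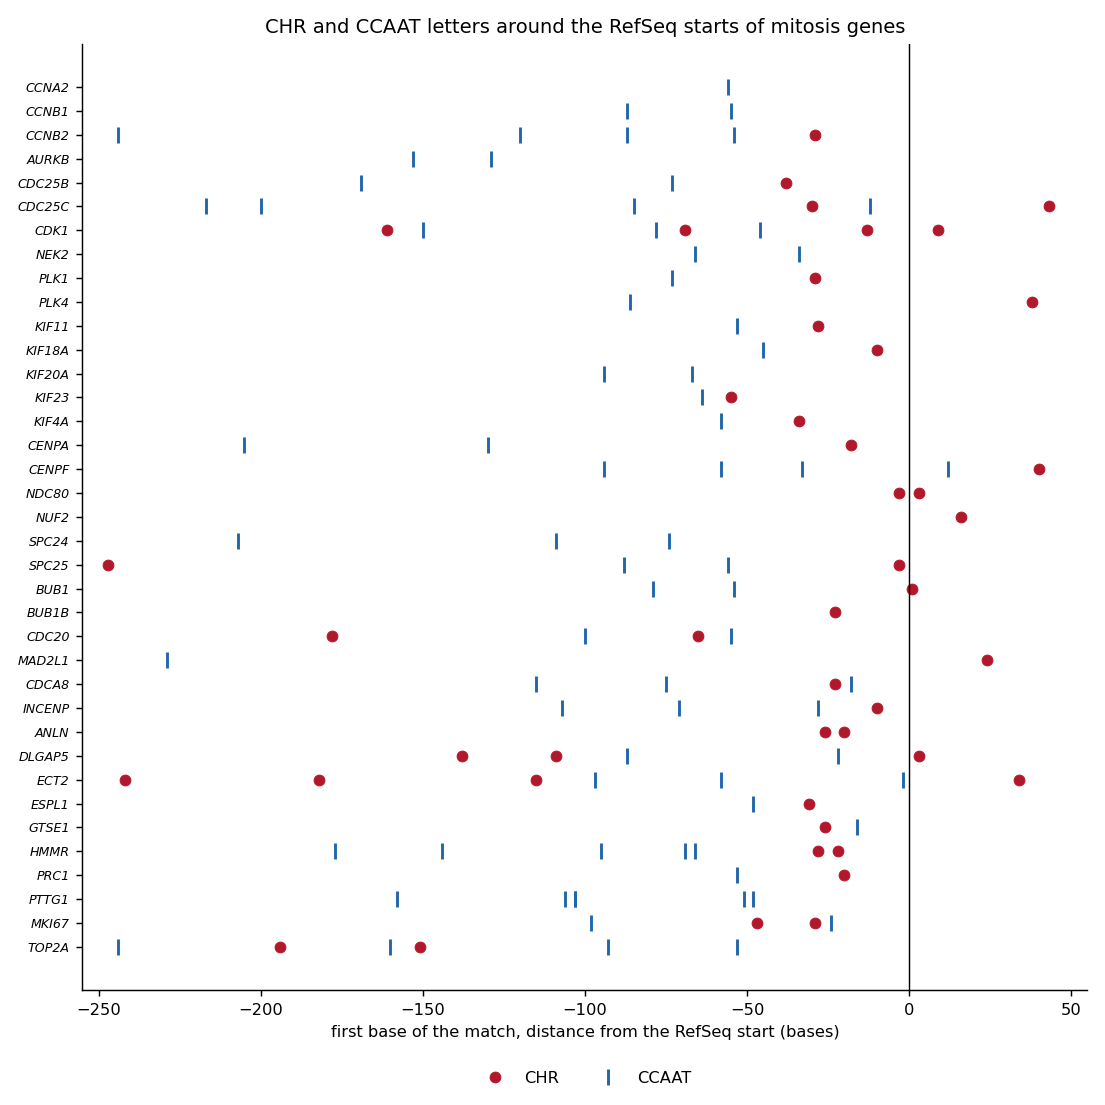
Position of each CHR match (circles) and CCAAT match (bars) from the RefSeq start, in bases, for the 37 genes with at least 1 match, over all their windows from 250 bases before to 50 after the start. The circles gather in the last 60 bases before the start, where 48.7% of the 39 genes with a window have one, and the bars lie mostly before them.

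All 3 cyclin genes were lowest in truncation knockdown cells. CCNA2, cyclin A2, the partner of CDK2 and then CDK1, fell by a log2 fold change of -1.11 ± 0.05 (adjusted p = 3.5e-15) against WT scramble cells and kept 46.4% of its level there. CCNA2 stood at 64.5, 65.4, 63.1 and 62.2 CPM in truncation knockdown libraries and at 114, 115, 106 and 107 CPM in truncation scramble libraries. In WT cells CCNA2 stood at 116, 134, 120.2 and 122 CPM in knockdown libraries and at 137, 137, 144 and 140.2 CPM in scramble libraries. The truncation knockdown libraries lay far below the rest, and no pair of groups overlapped. Its change was -0.35 ± 0.05 with truncation in scramble cells, -0.76 ± 0.05 with knockdown in truncation cells and -0.17 ± 0.05 with knockdown in WT cells. CCNB1 stood at 162, 170.4, 168 and 152 CPM in truncation knockdown libraries and at 258, 260.2, 248 and 259 CPM in truncation scramble libraries. In WT cells CCNB1 stood at 263, 281, 249.5 and 284 CPM in knockdown libraries and at 274, 269, 279 and 299 CPM in scramble libraries. CCNB1, cyclin B1, the main partner of CDK1 at mitotic entry, was again far lower in truncation knockdown than in the other groups, and WT knockdown overlapped both scramble groups. Its fold change by knockdown was -0.62 ± 0.05 (adjusted p = 2.0e-10) in truncation cells and -0.047 ± 0.05 (adjusted p = 0.462) in WT cells, where it was not called. CCNB2, the other B-type cyclin, changed by -0.78 ± 0.06 in truncation knockdown against WT scramble cells and by -0.34 ± 0.06 with truncation in scramble cells. The call of CCNB1 with truncation in scramble cells was lost without any 1 of truncation scramble replicates 1, 2, 3 and 4 and WT scramble replicate 4, with an adjusted p up to 0.115, and when genes were kept from 1 count upwards (adjusted p = 0.181). That of CCNB2 with knockdown in WT cells (-0.15) was lost without any 1 of WT knockdown replicates 1 and 3 and WT scramble replicates 3 and 4, with an adjusted p up to 0.0992, and when genes were kept from 1 count upwards (adjusted p = 0.0982) and in a fit of only the 2 groups compared (adjusted p = 0.0621).

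The kinases and CDC25 phosphatases all fell in truncation knockdown against WT scramble cells, 8 of 8, by amounts that differed widely within the class. AURKB fell most, to 32% of its WT scramble level, and AURKA least among the called genes, to 87.7%. AURKB stood at 46.3, 47.7, 43.97 and 44.4 CPM in truncation knockdown libraries and at 95.9, 94.3, 88.2 and 98.9 CPM in truncation scramble libraries. In WT cells AURKB stood at 95.6, 98.7, 84.3 and 104 CPM in knockdown libraries and at 146, 136, 137 and 159 CPM in scramble libraries. The truncation scramble and WT knockdown libraries of AURKB overlapped each other at an intermediate level, with truncation knockdown below them and WT scramble above. AURKB changed by -0.63 ± 0.06 (adjusted p = 6.2e-09) with truncation in scramble cells, by -1.01 ± 0.06 (adjusted p = 1.0e-12) with knockdown in truncation cells and by -0.59 ± 0.06 (adjusted p = 1.7e-08) with knockdown in WT cells. AURKA stood at 109.7, 105, 104 and 94.6 CPM in truncation knockdown libraries and at 119, 122, 115 and 116 CPM in truncation scramble libraries. In WT cells AURKA stood at 139.6, 156, 140.2 and 146 CPM in knockdown libraries and at 117, 116, 120.3 and 124 CPM in scramble libraries. For AURKA, the Aurora kinase of centrosomes and spindle poles, WT knockdown libraries were the highest, the scramble groups overlapped, and truncation knockdown was the lowest. AURKA rose by 0.29 ± 0.05 (adjusted p = 4.4e-05) with knockdown in WT cells, while its change with knockdown in truncation cells was -0.16 ± 0.05 (adjusted p = 0.0132), a fall that was not called under upper-quartile scaling (adjusted p = 0.0901).

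PLK1 stood at 150.02, 157, 146 and 153 CPM in truncation knockdown libraries and at 226, 229, 213 and 221 CPM in truncation scramble libraries. In WT cells PLK1 stood at 209, 225, 196 and 226 CPM in knockdown libraries and at 228, 207, 214 and 226 CPM in scramble libraries. PLK1, the Polo kinase of mitotic entry and centrosome maturation, was low in truncation knockdown cells, and the other groups overlapped each other. Its fold change was 0.0074 ± 0.05 with truncation in scramble cells and -0.023 ± 0.05 with knockdown in WT cells, neither called, against -0.52 ± 0.05 (adjusted p = 5.6e-09) with knockdown in truncation cells. CDC25B, a phosphatase that activates CDK1, did likewise, with -0.066 ± 0.05, 0.028 ± 0.05 and -0.29 ± 0.05 in the same order, of which the last was called. CDK1 itself changed by -0.47 ± 0.07 with truncation in scramble cells and by -0.33 ± 0.07 with knockdown in truncation cells, and was not called with knockdown in WT cells (-0.059 ± 0.07). CDC25C (-0.53 ± 0.07), NEK2 (-0.41 ± 0.06), a kinase of centrosome separation, and PLK4 (-0.30 ± 0.07), the kinase of centriole duplication, fell in truncation knockdown against WT scramble cells. PLK4 was not called with knockdown in truncation cells (-0.14 ± 0.07) or with truncation in scramble cells (-0.16 ± 0.07), although its truncation knockdown libraries lay below its truncation scramble libraries. In fits of only the 2 groups compared PLK4 was called lower in both (adjusted p = 0.0287 and 0.0338), and with truncation in scramble cells also under upper-quartile scaling (adjusted p = 0.0162). With knockdown in truncation cells PLK4 was also called lower without truncation knockdown replicate 4 (adjusted p = 0.0449) and without truncation scramble replicate 3 (adjusted p = 0.0234). With truncation in scramble cells it was called lower without truncation scramble replicate 1 (adjusted p = 0.0446). With truncation in scramble cells the genes lower were AURKB, CDK1, CDC25C and NEK2, 4 of 8, and with knockdown in WT cells AURKB was lower and AURKA higher. Over all tested genes 22.4% were lower with truncation in scramble cells, and 25.1% lower and 25.2% higher with knockdown in WT cells. PLK1 shares 11.6% of its exon bases with an antisense transcript on the other strand, and the labels do not state the strand setting of the counting.

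Among the kinesins, which move along microtubules or take them apart, KIF20A fell most of all 45 genes and KIF4A and KIF18A did not pass the test in truncation knockdown against WT scramble cells. KIF20A stood at 35.1, 37.1, 40.01 and 38.1 CPM in truncation knockdown libraries and at 85.5, 82.5, 77.4 and 77.9 CPM in truncation scramble libraries. In WT cells KIF20A stood at 90.2, 87.1, 76.9 and 87.8 CPM in knockdown libraries and at 121, 121, 126 and 124 CPM in scramble libraries. KIF20A, which carries the passenger complex to the central spindle, had truncation knockdown libraries below all others and WT scramble libraries above all others, with the remaining groups overlapping. It changed by -0.62 ± 0.05 (adjusted p = 1.1e-09) with truncation in scramble cells, by -1.07 ± 0.06 (adjusted p = 6.5e-14) with knockdown in truncation cells and by -0.52 ± 0.05 (adjusted p = 1.9e-08) with knockdown in WT cells. KIF23, the kinesin of the centralspindlin complex, changed by -0.82 ± 0.05 in truncation knockdown against WT scramble cells, and KIF11, which pushes the spindle poles apart, by -0.51 ± 0.06. KIF2C stood at 71.7, 70.9, 70.5 and 69.4 CPM in truncation knockdown libraries and at 86.6, 90.2, 87.1 and 91.1 CPM in truncation scramble libraries. In WT cells KIF2C stood at 120.4, 126, 111 and 123 CPM in knockdown libraries and at 108, 108, 110.0 and 108 CPM in scramble libraries. KIF2C, which takes apart microtubule ends at centromeres, was highest in WT knockdown cells and lowest in truncation knockdown cells, with no pair of groups overlapping. It rose by 0.16 ± 0.05 (adjusted p = 0.00637) with knockdown in WT cells, a call that did not hold when genes were kept from 1 count upwards (adjusted p = 0.0978), and fell by 0.30 ± 0.05 (adjusted p = 6.8e-06) with knockdown in truncation cells. KIF11 was not called with knockdown in truncation cells under upper-quartile scaling (adjusted p = 0.102).

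KIF18A stood at 44.9, 41.8, 45.9 and 42.2 CPM in truncation knockdown libraries and at 60.98, 59.6, 57.96 and 59.1 CPM in truncation scramble libraries. In WT cells KIF18A stood at 44.9, 51.4, 49.4 and 44.03 CPM in knockdown libraries and at 43.2, 47.3, 56.1 and 50.5 CPM in scramble libraries. KIF18A, which damps the movement of chromosomes at the metaphase plate, was highest in truncation scramble cells, whose libraries lay above those of all other groups. It rose by 0.26 ± 0.07 (adjusted p = 0.00464) with truncation in scramble cells, the only gene of the 45 called higher there, and fell by 0.41 ± 0.07 (adjusted p = 2.2e-05) with knockdown in truncation cells. KIF4A stood at 65.3, 70.8, 63.3 and 68.5 CPM in truncation knockdown libraries and at 72.6, 70.3, 70.8 and 70.5 CPM in truncation scramble libraries. In WT cells KIF4A stood at 84.4, 102, 80.3 and 87.4 CPM in knockdown libraries and at 72.2, 73.3, 77.98 and 70.7 CPM in scramble libraries. KIF4A, a chromosome-bound kinesin that works with PRC1 at the central spindle, was highest in WT knockdown cells and overlapped among the other groups. It rose by 0.28 ± 0.06 (adjusted p = 5.2e-04) with knockdown in WT cells and was not called with knockdown in truncation cells (-0.050 ± 0.06) or with truncation in scramble cells (-0.064 ± 0.06). The near-identical copy KIF4B could take reads from KIF4A, so its level is uncertain.

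All 7 kinetochore genes fell in truncation knockdown against WT scramble cells, and CENPA and SPC25 fell most. Knockdown lowered SPC24, SPC25, CENPA and NDC80 in WT cells, 4 of 7, and all 7 in truncation cells. Over all tested genes knockdown lowered 25.1% in WT cells and 28.1% in truncation cells. CENPA stood at 11.1, 10.9, 9.93 and 9.86 CPM in truncation knockdown libraries and at 22.2, 22.2, 20.3 and 20.9 CPM in truncation scramble libraries. In WT cells CENPA stood at 16.2, 15.5, 14.3 and 16.6 CPM in knockdown libraries and at 23.4, 24.7, 24.4 and 23.2 CPM in scramble libraries. For CENPA, the histone H3 variant that marks centromeres, the 4 groups did not overlap, with truncation knockdown lowest, then WT knockdown, truncation scramble and WT scramble. CENPA changed by -1.001 ± 0.07 (adjusted p = 5.4e-12) with knockdown in truncation cells, by -0.60 ± 0.07 (adjusted p = 3.7e-08) with knockdown in WT cells and by -0.17 ± 0.06 (adjusted p = 0.0296) with truncation in scramble cells. SPC24 stood at 19.8, 19.9, 19.3 and 16.7 CPM in truncation knockdown libraries and at 30.9, 32.8, 28.05 and 35.4 CPM in truncation scramble libraries. In WT cells SPC24 stood at 22.1, 19.9, 21.4 and 23.2 CPM in knockdown libraries and at 34.2, 31.6, 32.6 and 37.4 CPM in scramble libraries. SPC24, a subunit of the Ndc80 complex that grips microtubules, was low in both knockdown groups, with truncation knockdown just below WT knockdown, and its scramble groups overlapped. Its change by knockdown was -0.72 ± 0.08 (adjusted p = 2.2e-08) in truncation cells and -0.64 ± 0.08 (adjusted p = 2.0e-07) in WT cells, while truncation gave -0.11 ± 0.08 in scramble cells and -0.19 ± 0.08 in knockdown cells, neither called. In knockdown cells SPC24 was called lower with truncation without truncation knockdown replicate 1 (adjusted p = 0.0487) and without WT knockdown replicate 2 (adjusted p = 0.0215). Its partner SPC25 changed by -0.97 ± 0.08 with knockdown in truncation cells and by -0.60 ± 0.07 in WT cells. The other subunits of the same complex moved less by knockdown, NDC80 by -0.46 ± 0.07 in truncation cells and -0.15 ± 0.06 in WT cells, and NUF2 by -0.23 ± 0.06 in truncation cells, with -0.035 ± 0.05 in WT cells, not called.

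CENPE, the kinetochore kinesin that brings chromosomes to the spindle equator, and CENPF, a large outer kinetochore protein, had larger estimates for truncation than for knockdown, a difference that was not tested. In scramble cells truncation gave -0.40 ± 0.07 for CENPE and -0.37 ± 0.08 for CENPF, and in knockdown cells -0.76 ± 0.07 and -0.52 ± 0.08. Knockdown gave CENPE -0.21 ± 0.07 in truncation cells and 0.15 ± 0.07 in WT cells, the WT value not called. The truncation knockdown and truncation scramble libraries of both genes overlapped. The call of CENPE with knockdown in truncation cells was lost without truncation knockdown replicate 2, with an adjusted p of 0.0542, and under upper-quartile scaling (adjusted p = 0.0848). With truncation in scramble cells, the call of CENPA was lost without any 1 of truncation scramble replicates 1, 2, 3 and 4 and WT scramble replicates 2 and 3, with an adjusted p up to 0.128, and when genes were kept from 1 count upwards (adjusted p = 0.214). That of NUF2 (-0.15) was lost without any 1 of truncation scramble replicates 1, 3 and 4 and WT scramble replicates 3 and 4, with an adjusted p up to 0.134, and when genes were kept from 1 count upwards (adjusted p = 0.227). The call of NDC80 with knockdown in WT cells was lost without any 1 of WT knockdown replicates 1, 3 and 4 and WT scramble replicates 1, 3 and 4, with an adjusted p up to 0.157. For NDC80 it was also lost under DESeq2's size factors (adjusted p = 0.0609), under upper-quartile scaling (adjusted p = 0.054), when genes were kept from 1 count upwards (adjusted p = 0.129), by DESeq2's Wald test (adjusted p = 0.0591) and in a fit of only the 2 groups compared (adjusted p = 0.107).

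The 6 spindle checkpoint genes all fell in truncation knockdown against WT scramble cells, CDC20 the most. CDC20, the activator of the anaphase-promoting complex that the checkpoint holds back, changed by -0.99 ± 0.05 (adjusted p = 1.8e-14) and kept 50.2% of its WT scramble level. CDC20 stood at 190.2, 193, 187 and 182 CPM in truncation knockdown libraries and at 306, 303, 299 and 315 CPM in truncation scramble libraries. In WT cells CDC20 stood at 311, 321, 279 and 338 CPM in knockdown libraries and at 386, 359, 372 and 402 CPM in scramble libraries. The truncation scramble and WT knockdown libraries overlapped, with truncation knockdown far below them and WT scramble above. Its change was -0.33 ± 0.05 with truncation in scramble cells, -0.67 ± 0.05 with knockdown in truncation cells and -0.27 ± 0.05 with knockdown in WT cells, all called. BUB1 stood at 107, 114, 113 and 110.4 CPM in truncation knockdown libraries and at 131, 126, 119.9 and 121 CPM in truncation scramble libraries. In WT cells BUB1 stood at 159.9, 176, 159.9 and 157 CPM in knockdown libraries and at 145, 153, 169 and 155 CPM in scramble libraries. BUB1, a kinase that recruits checkpoint proteins to kinetochores, followed the genotype, with both truncation groups below both WT groups, which overlapped. Truncation gave BUB1 -0.54 ± 0.05 (adjusted p = 1.2e-08) in knockdown cells and -0.34 ± 0.05 (adjusted p = 1.8e-05) in scramble cells, and knockdown gave -0.13 ± 0.05 (adjusted p = 0.049) in truncation cells and 0.079 ± 0.05 (adjusted p = 0.235) in WT cells. BUB1B, the BubR1 protein of the inhibitory complex, fell in all 5 comparisons of groups, from -0.20 to -0.70.

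MAD2L1, the checkpoint protein that binds CDC20, changed by -0.63 ± 0.05 in truncation knockdown against WT scramble cells, and TTK, the kinase that starts checkpoint signalling, by -0.42 ± 0.06. BUB3, the partner of BUB1 and BubR1, changed little with truncation in scramble cells (0.0070 ± 0.04, not called) and by -0.28 ± 0.04 with knockdown in truncation cells. With truncation in scramble cells 5 of the 6 genes fell, and with knockdown in WT cells the 3 called lower were CDC20, BUB1B and BUB3. Over all tested genes the shares lower were 22.4% and 25.1% in the same order. The WT knockdown call of BUB3 (-0.11) was lost without any 1 of WT knockdown replicates 1, 3 and 4 and WT scramble replicates 1, 3 and 4, with an adjusted p up to 0.0948. For BUB3 it was also lost under DESeq2's size factors (adjusted p = 0.0583), when genes were kept from 1 count upwards (adjusted p = 0.254) and in a fit of only the 2 groups compared (adjusted p = 0.116). The call of BUB1B with truncation in scramble cells was lost without truncation scramble replicate 3, with an adjusted p of 0.0517. The call of BUB1 with knockdown in truncation cells was lost without any 1 of truncation knockdown replicate 1 and truncation scramble replicate 1, with an adjusted p up to 0.0827, and under upper-quartile scaling (adjusted p = 0.25) and when genes were kept from 1 count upwards (adjusted p = 0.0729). That of TTK in the same comparison was also lost under upper-quartile scaling (adjusted p = 0.0543).

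The chromosomal passenger complex, which corrects wrong attachments and steers cytokinesis, lost RNA of all its measured subunits in truncation knockdown against WT scramble cells. CDCA8 stood at 58.1, 59.8, 56.6 and 57.01 CPM in truncation knockdown libraries and at 93.1, 96.7, 86.1 and 91.9 CPM in truncation scramble libraries. In WT cells CDCA8 stood at 94.0, 101, 79.98 and 94.3 CPM in knockdown libraries and at 99.3, 99.2, 106 and 101 CPM in scramble libraries. CDCA8, which encodes borealin, was clearly low in truncation knockdown cells, and WT knockdown overlapped both scramble groups. It changed by -0.78 ± 0.06 (adjusted p = 9.5e-12) in truncation knockdown against WT scramble cells, by -0.63 ± 0.06 with knockdown in truncation cells, and by -0.12 ± 0.06 in WT cells, where it was not called. Without WT knockdown replicate 2, CDCA8 was called lower with knockdown in WT cells (-0.17, adjusted p = 0.0157). BIRC5, survivin, changed by -0.51 ± 0.05 and INCENP, the scaffold of the complex, by -0.28 ± 0.06 in truncation knockdown against WT scramble cells. INCENP was not called with knockdown in truncation cells (-0.12 ± 0.06), and with knockdown in WT cells it stood at 0.083 ± 0.06 and BIRC5 at -0.028 ± 0.05, neither called. In truncation cells INCENP was called lower without truncation knockdown replicate 4 (-0.21, adjusted p = 0.00363) and without truncation scramble replicate 4 (-0.18, adjusted p = 0.0266). With truncation in scramble cells, the call of CDCA8 (-0.15) was lost without any 1 of truncation scramble replicates 1, 3 and 4 and WT scramble replicates 3 and 4, with an adjusted p up to 0.17, and when genes were kept from 1 count upwards (adjusted p = 0.171). That of INCENP (-0.15) was lost without any 1 of truncation scramble replicates 2, 3 and 4 and WT scramble replicates 1, 2 and 3, with an adjusted p up to 0.205. For INCENP it was also lost under DESeq2's size factors (adjusted p = 0.0672), when genes were kept from 1 count upwards (adjusted p = 0.138) and by DESeq2's Wald test (adjusted p = 0.0646).

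Of the 9 genes of the spindle, sister separation and cytokinesis, 8 fell in truncation knockdown against WT scramble cells. ESPL1 stood at 37.2, 40.9, 44.6 and 47.1 CPM in truncation knockdown libraries and at 91.4, 84.98, 83.6 and 80.1 CPM in truncation scramble libraries. In WT cells ESPL1 stood at 84.1, 81.99, 69.8 and 85.3 CPM in knockdown libraries and at 134, 128, 132 and 122 CPM in scramble libraries. ESPL1 had intermediate, overlapping levels in truncation scramble and WT knockdown cells, with truncation knockdown below and WT scramble above. Separase RNA changed by -0.62 ± 0.07 (adjusted p = 4.6e-08) with truncation in scramble cells, by -0.97 ± 0.07 (adjusted p = 1.4e-11) with knockdown in truncation cells and by -0.68 ± 0.07 (adjusted p = 8.1e-09) with knockdown in WT cells. PTTG1, which encodes its inhibitor securin, changed by -0.58 ± 0.06 in truncation knockdown against WT scramble cells, and its near-identical copies PTTG2 and PTTG3P make its count uncertain. GTSE1 stood at 38.9, 42.6, 39.5 and 44.7 CPM in truncation knockdown libraries and at 78.9, 79.1, 70.96 and 74.4 CPM in truncation scramble libraries. In WT cells GTSE1 stood at 75.4, 84.3, 72.8 and 77.8 CPM in knockdown libraries and at 91.7, 93.5, 94.04 and 94.6 CPM in scramble libraries. GTSE1, a microtubule-binding protein of the spindle that also restrains p53, had the same order of groups, with truncation scramble and WT knockdown overlapping. It changed by -1.15 ± 0.06 (adjusted p = 8.4e-15) in truncation knockdown against WT scramble cells and by -0.84 ± 0.06 with knockdown in truncation cells, against -0.26 ± 0.06 with knockdown in WT cells.

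The spindle genes DLGAP5 (-0.91 ± 0.06), a stabiliser of kinetochore fibres, TPX2 (-0.68 ± 0.05), the activator of AURKA, and HMMR (-0.25 ± 0.06), a microtubule-binding protein, fell in truncation knockdown against WT scramble cells. So did the cytokinesis genes ANLN (-0.63 ± 0.07), the contractile ring scaffold anillin, and ECT2 (-0.25 ± 0.07), the activator of RhoA at the division site. HMMR and ECT2 were not called with truncation in scramble cells (0.021 ± 0.06 and -0.030 ± 0.07) or with knockdown in WT cells (0.10 ± 0.06 and 0.055 ± 0.07), and both fell with knockdown in truncation cells (-0.27 ± 0.06 and -0.22 ± 0.07). PRC1, which bundles microtubules of the central spindle, was called in no comparison. It had 26 to 73 counts a library and group means of 1.42 to 1.74 CPM. It shares 57.6% of its exon bases with the protein-coding gene ENSG00000284946 on the same strand, which stood at 1.30 to 2.33 CPM in truncation knockdown, 2.43 to 3.46 CPM in truncation scramble, 1.91 to 2.96 CPM in WT knockdown and 2.50 to 4.53 CPM in WT scramble libraries. The level of PRC1 is therefore uncertain. With truncation in scramble cells, the call of ANLN (-0.19) was lost without any 1 of truncation scramble replicates 3 and 4 and WT scramble replicate 3, with an adjusted p up to 0.0979.

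The 3 remaining genes, of chromosome structure and transcription, fell together in truncation knockdown against WT scramble cells. MKI67 stood at 257, 339.6, 309.6 and 429.6 CPM in truncation knockdown libraries and at 525, 525, 522 and 429 CPM in truncation scramble libraries. In WT cells MKI67 stood at 614, 686, 582 and 574 CPM in knockdown libraries and at 681, 837, 772 and 689 CPM in scramble libraries. MKI67, the Ki-67 protein that coats mitotic chromosomes and marks cycling cells, spread widely within groups, and its truncation knockdown and truncation scramble libraries overlapped by 1 library each. It changed by -1.14 ± 0.11 (adjusted p = 8.4e-10) in truncation knockdown against WT scramble cells, by -0.59 ± 0.10 (adjusted p = 6.3e-05) with truncation in scramble cells and by -0.27 ± 0.10 (adjusted p = 0.035) with knockdown in WT cells. TOP2A stood at 134, 140.0, 150.2 and 137 CPM in truncation knockdown libraries and at 203, 203, 197 and 189.9 CPM in truncation scramble libraries. In WT cells TOP2A stood at 233, 259, 256 and 226 CPM in knockdown libraries and at 228, 245, 271 and 245 CPM in scramble libraries. TOP2A, the topoisomerase that untangles sister chromatids, showed truncation knockdown lowest, truncation scramble next and overlapping WT groups above them. Its change by knockdown was -0.46 ± 0.06 (adjusted p = 3.5e-07) in truncation cells and -0.011 ± 0.06 (adjusted p = 0.892) in WT cells. FOXM1, a transcription factor that switches on genes of G2 phase and mitosis, changed by -0.90 ± 0.06 in truncation knockdown against WT scramble cells, by -0.66 ± 0.06 with knockdown in truncation cells and by -0.35 ± 0.06 in WT cells. FOXM1 shares 15.9% of its exon bases with ITFG2 on the other strand. The call of MKI67 with knockdown in WT cells was lost without any 1 of WT knockdown replicates 1, 3 and 4 and WT scramble replicates 2 and 3, with an adjusted p up to 0.127, and by DESeq2's Wald test (adjusted p = 0.107).

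**Figure D3:**
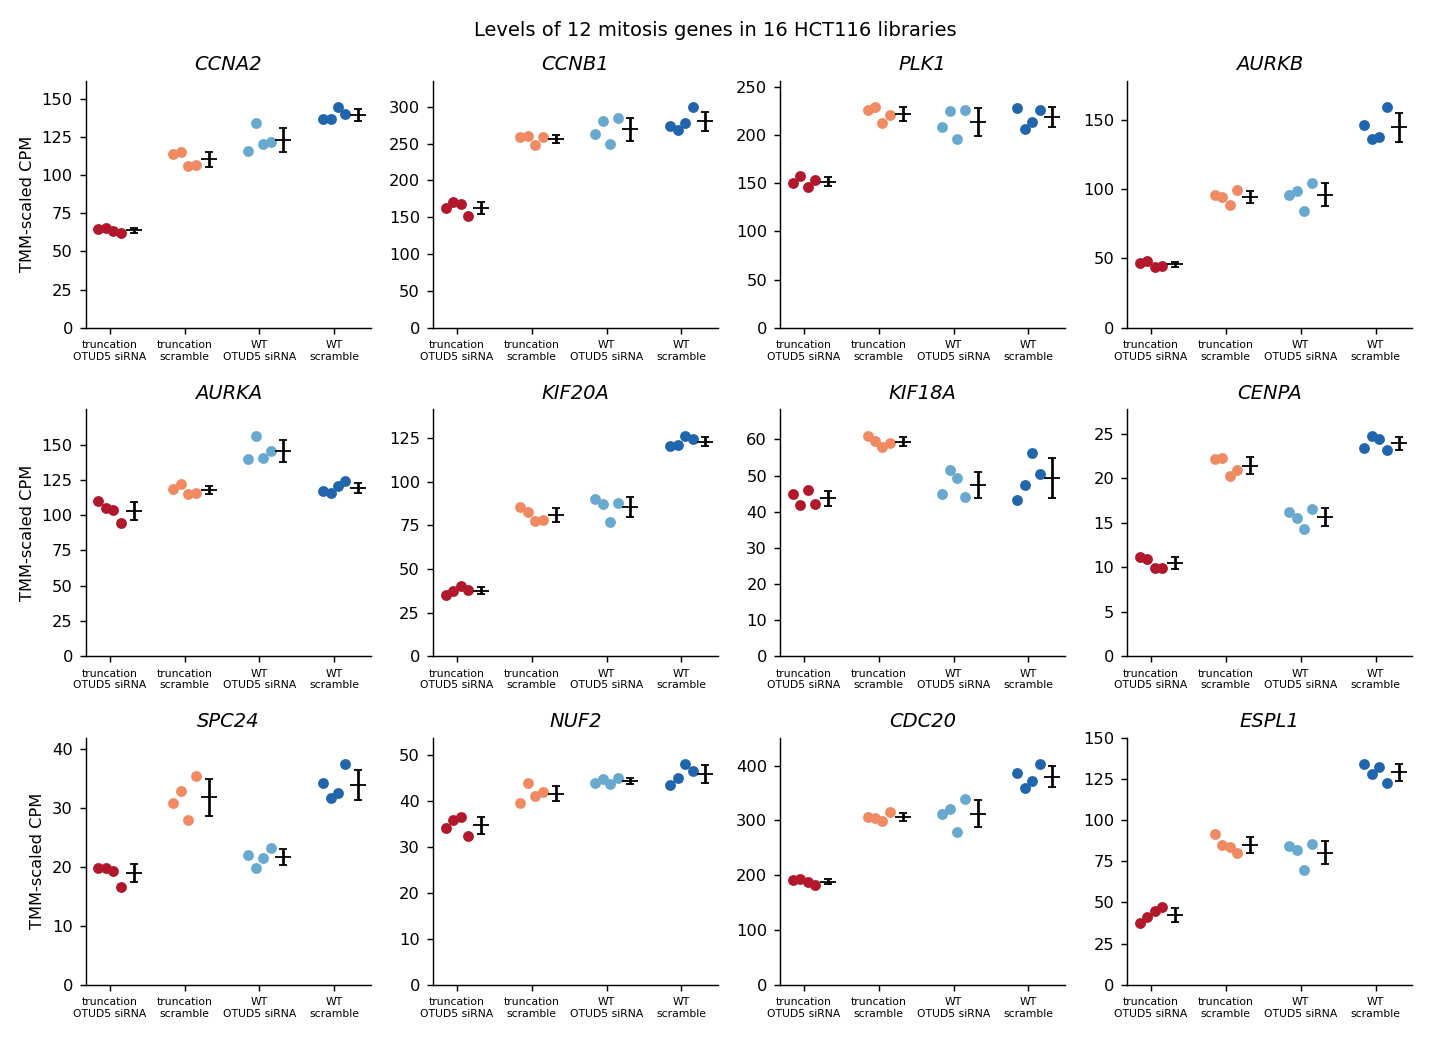
Deposited TMM-scaled CPM of 12 genes in each library (points, 4 per group), with the group mean ± SD in black, and the groups in the order truncation OTUD5 siRNA, truncation scramble, WT OTUD5 siRNA and WT scramble. Truncation knockdown libraries lie below all others in every panel except that of KIF18A, where they overlap both WT groups and truncation scramble is highest.

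Knockdown lowered the mitosis genes more in truncation cells than in WT cells. In the interaction, the effect of knockdown in truncation cells less its effect in WT cells, 28 of the 45 genes were called below 0 and none above, while over all tested genes 3.65% were below and 2.05% above. All 45 estimates were below 0, so none was above at an unadjusted p, and DESeq2 and limma voom called none above, with 35 and 28 called below. The member median was -0.31, against -0.013 for all tested genes, of which 52.3% had an estimate below 0. The largest differences were those of CCNA2 at -0.58 ± 0.07 (adjusted p = 4.1e-05), GTSE1 at -0.58 ± 0.08 (adjusted p = 1.2e-04), CCNB1 at -0.57 ± 0.07 (adjusted p = 3.9e-05), KIF20A at -0.55 ± 0.08 (adjusted p = 1.1e-04) and DLGAP5 at -0.52 ± 0.08 (adjusted p = 2.4e-04). Among the called genes the smallest were MAD2L1 at -0.26 ± 0.08 (adjusted p = 0.044), BIRC5 at -0.27 ± 0.07, TPX2 at -0.28 ± 0.07, CCNB2 at -0.29 ± 0.08 and NEK2 at -0.30 ± 0.08. The genes that had risen with knockdown in WT cells were among those called, AURKA at -0.45 ± 0.07, KIF2C at -0.45 ± 0.07 and KIF4A at -0.33 ± 0.09, as was KIF18A at -0.36 ± 0.10. For SPC24 the difference was -0.078 ± 0.11 (adjusted p = 0.752), the estimate nearest to 0. It was -0.29 ± 0.10 (adjusted p = 0.0757) for ESPL1 and -0.28 ± 0.15 (adjusted p = 0.297) for MKI67, so for these genes a difference between the genotypes was not shown with all libraries. Without truncation knockdown replicate 4 it was called for ESPL1 (-0.36, adjusted p = 0.0285) and for MKI67 (-0.45, adjusted p = 0.0361). With genes kept from 1 count upwards the differences of ESPL1 (adjusted p = 0.0392) and MKI67 (adjusted p = 0.0251) were called, as was that of ESPL1 by DESeq2's Wald test (adjusted p = 0.0382). The remaining genes not called were BUB1, BUB1B, BUB3, CDK1, CENPF, ECT2, INCENP, KIF11, NDC80, NUF2, PLK4, PRC1, PTTG1 and TTK. Of all genes not called, 9 were called below 0 in at least 1 fit with 1 library left out, among them BUB1B, CDK1, INCENP, NDC80 and PLK4.

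Across the 45 genes, the knockdown effects in truncation and WT cells, which come from separate libraries, had a Pearson r of 0.885 and a Spearman rho of 0.857, a description across genes that are not independent. The estimates thus kept much the same order in both genotypes and lay lower in truncation cells. The interaction calls of 16 genes held in every fit and with every library left out in turn. These were AURKA, AURKB, CCNA2, CCNB1, CDC20, CDC25B, CDCA8, CENPA, DLGAP5, GTSE1, HMMR, KIF20A, KIF23, KIF2C, PLK1 and TOP2A. Upper-quartile scaling left 18 genes called below 0, and the calls of BIRC5, CCNB2, CDC25C, CENPE, FOXM1, KIF18A, KIF4A, MAD2L1, SPC25 and TPX2 were lost under it, with adjusted p of 0.059 to 0.104. Under that scaling the interaction over all genes split into 397 below and 502 above 0, against 624 and 350 in the TMM fit. With 1 library left out, the calls of ANLN and NEK2 were lost without WT scramble replicate 1 (adjusted p = 0.0545 and 0.053) and that of KIF4A without WT scramble replicate 2 (adjusted p = 0.0508). That of KIF18A was lost without any 1 of truncation knockdown replicate 2 and WT scramble replicates 1 and 2, with an adjusted p up to 0.0709. That of BIRC5 was lost without any 1 of WT knockdown replicate 4 and WT scramble replicates 2 and 3, with an adjusted p up to 0.0721. That of FOXM1 was lost without any 1 of truncation scramble replicates 1 and 2 and WT scramble replicates 2 and 4, with an adjusted p up to 0.0597. That of CCNB2 was lost without any 1 of truncation knockdown replicate 4, truncation scramble replicates 1 and 4, WT knockdown replicate 4 and WT scramble replicates 1 and 2, with an adjusted p up to 0.0744. That of CDC25C was lost without any 1 of truncation knockdown replicates 3 and 4, truncation scramble replicates 2, 3 and 4, WT knockdown replicates 1 and 4 and WT scramble replicates 1, 2, 3 and 4, with an adjusted p up to 0.0789, and when genes were kept from 1 count upwards (adjusted p = 0.13). That of CENPE was lost without any 1 of truncation knockdown replicates 1 and 2, truncation scramble replicates 1, 2 and 3, WT knockdown replicate 3 and WT scramble replicates 1, 2 and 4, with an adjusted p up to 0.0916. That of MAD2L1 was lost without any 1 of truncation knockdown replicates 2 and 4, truncation scramble replicates 1, 2, 3 and 4, WT knockdown replicate 2 and WT scramble replicates 1, 2 and 4, with an adjusted p up to 0.103, and when genes were kept from 1 count upwards (adjusted p = 0.0666). That of SPC25 was lost without any 1 of truncation knockdown replicate 4, truncation scramble replicates 1, 3 and 4, WT knockdown replicates 3 and 4 and WT scramble replicates 1, 2 and 3, with an adjusted p up to 0.0909.

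**Figure D4:**
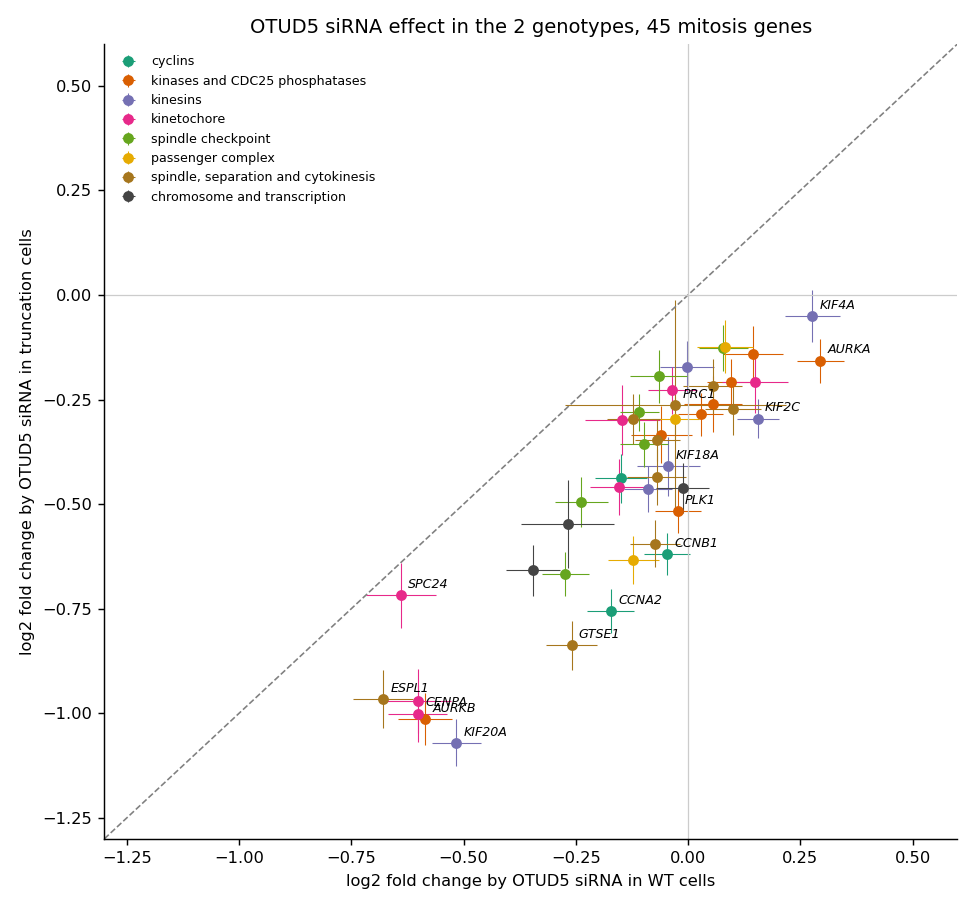
Log2 fold change by OTUD5 siRNA in truncation cells (vertical axis) against that in WT cells (horizontal axis) for the 45 genes, coloured by class, with bars of 1 standard error and a dashed line of equal effects. All 45 points lie below the line, SPC24 closest to it, and AURKA, KIF2C and KIF4A, the genes called higher in WT cells, lie right of 0 on the horizontal axis and below 0 on the vertical axis.

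The classes are set beside each other by their medians, as a description with no test between classes. The median log2 fold change of truncation knockdown against WT scramble cells was -0.90 for the chromosome and transcription genes, -0.83 for the kinetochore, -0.78 for the cyclins, -0.63 for the spindle, separation and cytokinesis genes, -0.56 for the kinesins, -0.55 for the checkpoint, -0.51 for the passenger complex and -0.46 for the kinases and phosphatases. With truncation in scramble cells the kinesins (-0.32) stood near the cyclins (-0.34) and the kinetochore (-0.17) near the kinases (-0.18). With knockdown in WT cells the kinetochore genes had a median of -0.15 and the cyclins -0.15, while the kinesins had -0.023 and the kinases 0.042. In the interaction the medians were -0.57 for the cyclins with 3 of 3 genes called, -0.37 for the kinesins with 5 of 6, -0.32 for the kinases with 6 of 8 and -0.31 for the chromosome and transcription genes with 2 of 3. For the kinetochore it was -0.31 with 3 of 7 called, for the spindle, separation and cytokinesis genes -0.29 with 5 of 9, for the passenger complex -0.27 with 2 of 3 and for the checkpoint -0.23 with 2 of 6. Over all tested genes 3.65% were called below 0 in the interaction. Per library, a class level was taken as the median over its genes of log2(CPM + 1) minus the gene's WT scramble mean. That of the cyclins averaged -0.82 ± 0.1 in truncation knockdown, -0.31 ± 0.045 in truncation scramble, -0.14 ± 0.071 in WT knockdown and 0.00094 ± 0.036 in WT scramble libraries (SD, n = 4). For the kinetochore genes these averages were -0.83 ± 0.081, -0.21 ± 0.042, -0.19 ± 0.11 and 0.0043 ± 0.052 in the same order of groups. For the kinesins they were -0.57 ± 0.012, -0.30 ± 0.045, -0.029 ± 0.11 and 0.0074 ± 0.043. In these 3 classes every truncation knockdown library stood below every library of the other groups, and the WT knockdown libraries overlapped the WT scramble libraries for the kinetochore genes and the kinesins and not for the cyclins.

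**Figure D5:**
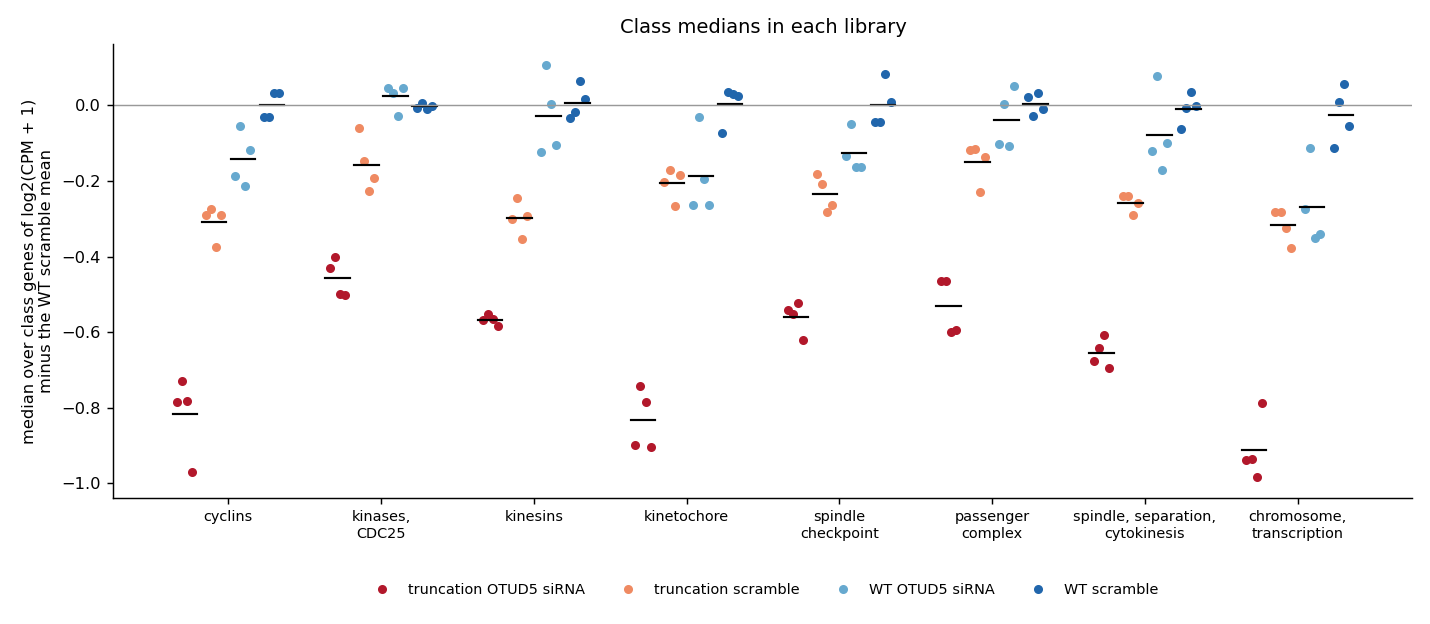
Median over the genes of a class of log2(CPM + 1) minus the gene's WT scramble mean, for each library (points, 4 per group) with the group mean as a black line, for the 8 classes on the horizontal axis. In every class the 4 truncation knockdown libraries lie lowest, with group means from -0.46 for the kinases and phosphatases to -0.91 for the chromosome and transcription genes.

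Per kilobase of exon, the highest levels in WT scramble cells were those of CDC20 (186 CPM per kb), CCNB1 (109.5) and TPX2 (105), and the lowest those of PRC1 (0.315), CDC25C (5.31) and CENPE (5.39). The length was that of all annotated exons of a gene and not of the transcripts expressed, so orders between genes are uncertain. The value of PRC1 is uncertain also because it shares exon bases with another gene. On the same per-length scale in truncation knockdown cells CDC20 stood at 92.3, CDC25B at 66.5, TPX2 at 64.7 and CCNB1 at 63.7 CPM per kb. Within the Ndc80 complex, per-kilobase levels in WT scramble cells were 19.2 for SPC25, 13.6 for NUF2, 11.97 for SPC24 and 11.4 for NDC80. In truncation knockdown cells they were 8.68, 10.3, 6.66 and 6.203 in the same order, so that SPC25 stood below NUF2 there.

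The wider mitotic machinery was read from lists of other genes, in truncation knockdown against WT scramble cells. The shares to read these counts against are the 33.5% of all tested genes that fell and the 33.2% that rose, with a median of 0.0016 over all tested genes. All 8 condensin genes, which fold mitotic chromosomes, fell, with a median of -0.48, among them NCAPG (-0.85 ± 0.06) and NCAPH (-0.76 ± 0.05). Of 7 further mitotic kinesins 6 fell and 1 rose (median -0.69), with KIFC1 at -1.37 ± 0.05 and KIF15 at -0.94 ± 0.08. Of 17 genes of the inner centromere and of CENPA loading 10 fell and 1 rose (median -0.39), with CENPI at -1.20 ± 0.09 and CENPL at -1.15 ± 0.08. Other outer kinetochore genes had 10 of 16 lower and 3 higher (median -0.28), with SKA2 at -0.95 ± 0.07 and KNL1, the platform for BUB1, at -0.86 ± 0.08. Of 15 regulators of entry and exit 8 fell and 4 rose (median -0.19), with PKMYT1, the kinase that inhibits CDK1, at -1.72 ± 0.07. Of 14 centrosome duplication genes 7 fell and 3 rose (median -0.15), with TUBG1, gamma-tubulin, at -1.73 ± 0.07 and CETN2 at 0.85 ± 0.07. Of 11 genes of cohesin and its protectors 5 fell and 1 rose (median -0.10), with SMC1A at -0.82 ± 0.06. Of 18 genes of the anaphase-promoting complex and its partners 8 fell and 7 rose (median 0.0085), with ANAPC4 at -1.004 ± 0.06 and the inhibitor FBXO5 at -0.85 ± 0.07. The shares lower among the cohesin, anaphase-promoting complex, centrosome duplication and entry and exit genes lie above that of all genes by margins that were not tested. Genes of each of these lists also rose, and nothing is read from their shares.

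Genes known to regulate the members are given for the same comparison and against the same shares of all genes. Of 18 genes of DREAM, MuvB and the E2F family 9 fell and 6 rose (median -0.14). The share higher was that of all genes, and nothing is read from either share. Among those that fell were MYBL2, an activator of mitosis genes, at -1.51 ± 0.06, RBBP4 at -1.22 ± 0.05 and E2F8 at -1.18 ± 0.08. Of 9 genes of p53 and the CDK inhibitors 5 rose and 1 fell (median 0.28), with CDKN1A at 1.87 ± 0.05, CDKN2B at 1.70 ± 0.07 and CDKN1B at 1.23 ± 0.06. Of 7 tested G1 cyclins and CDKs 3 fell and 3 rose, among them CDK4 (-1.15 ± 0.06) and CDK2 (-0.77 ± 0.06), which fell, and CDK6 (1.16 ± 0.09), which rose. CDKN1A stood at 1210.4, 1158, 1014 and 1084 CPM in truncation knockdown libraries and at 386, 385, 381 and 388 CPM in truncation scramble libraries. In WT cells CDKN1A stood at 874, 817, 812 and 869 CPM in knockdown libraries and at 317, 309, 314 and 296 CPM in scramble libraries. CDKN1A, which encodes the inhibitor p21, was high in both knockdown groups and the 4 groups did not overlap. It rose by 1.57 ± 0.05 with knockdown in truncation cells and by 1.46 ± 0.05 in WT cells, and its interaction was 0.11 ± 0.07 (adjusted p = 0.415), not called. The level over all 45 members, taken per library like the class levels, averaged -0.67 ± 0.035 in truncation knockdown, -0.23 ± 0.044 in truncation scramble, -0.097 ± 0.07 in WT knockdown and -0.00039 ± 0.029 in WT scramble libraries (SD, n = 4), and the part of CDKN1A in it was not tested.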

How the data were processed

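RNA of 16 HCT116 libraries was sequenced by a commercial provider after column purification and a Nextera-XT-based preparation, per the labels' protocols. The authors deposited raw counts per Ensembl gene for 60668 genes, a filtered count table of 22916 genes and, as signal values, CPM scaled by TMM. The deposited signal equalled CPM recomputed from the filtered counts, to a largest relative difference of 5e-15, and the filtered counts were unaltered. STAR 2.7.3a, DESeq2, edgeR, limma and hg38 are named in the submitters' processing notes with no role or order. Which program counted the reads, and with which annotation and strand setting, is not stated there.

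The 45 members were matched by symbol in the deposited CPM table. Raw counts were filtered with filterByExpr over the 4 groups, which left 17104 genes, given TMM factors, and tested by the quasi-likelihood method of edgeR 4.0.16 under R 4.3.3, in 1 model of all 16 libraries with a term for each group (12 residual degrees of freedom, 7.25% common biological coefficient of variation). The fit gave 6 two-sided comparisons, each with Benjamini-Hochberg adjustment over all tested genes and a call at an adjusted p under 0.05. A standard error is the size of the log2 fold change over the square root of its F statistic. The fit was tested on simulated data. Members and lists were chosen with earlier results of these data known. Named genes were all members, with values per library for the largest changes of each class and others the text turns on, and from each other list up to 3 called genes of the largest change.

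Replicate pairs had a chi-square per degree of freedom of 2.75 to 20.8, so each library was counted as 1 replicate. Alternatives were DESeq2's size factors, upper-quartile scaling, no filter beyond 1 count, DESeq2's Wald test (DESeq2 1.42.0), limma voom (limma 3.58.1), a fit of only the 2 groups compared, a replicate block, and leaving out each library. Leaving out WT knockdown replicates 2 and 3 together was added after seeing the data. Gene structures came from GENCODE on GRCh38, whose release may differ from the one counted, and promoter windows from RefSeq. Pseudogene copies are annotated also for AURKA, BUB1, BUB3, CCNB2, CDC20, DLGAP5, MKI67 and NEK2, and could take reads from them. BUB1B shares 10.2% of its exon bases with BUB1B-PAK6 on the same strand, and CENPA 6.96% with SLC35F6. CCNA2 shares 9.08% with EXOSC9 on the other strand.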

Additional observations from a re-analysis of the deposited data

Results flagged for a closer look

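In 28 of the 45 genes the effect of knockdown differed between truncation and WT cells by edgeR's test of the interaction, and each difference, truncation less WT, was below 0. Among the cyclins the log2 differences were -0.58 for CCNA2, -0.57 for CCNB1 and -0.29 for CCNB2. Among the kinases and CDC25 phosphatases the log2 differences were -0.31 for CDC25B, -0.32 for CDC25C, -0.49 for PLK1, -0.45 for AURKA, -0.43 for AURKB and -0.30 for NEK2. Among the kinesins the log2 differences were -0.55 for KIF20A, -0.37 for KIF23, -0.45 for KIF2C, -0.33 for KIF4A and -0.36 for KIF18A. Among the kinetochore genes the log2 differences were -0.40 for CENPA, -0.36 for CENPE and -0.37 for SPC25. Among the checkpoint genes the log2 differences were -0.26 for MAD2L1 and -0.39 for CDC20. Among the passenger complex genes the log2 differences were -0.27 for BIRC5 and -0.51 for CDCA8. Among the spindle, separation and cytokinesis genes the log2 differences were -0.28 for TPX2, -0.37 for HMMR, -0.52 for DLGAP5, -0.58 for GTSE1 and -0.36 for ANLN. Among the chromosome and transcription genes the log2 differences were -0.45 for TOP2A and -0.31 for FOXM1.

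In 6 of 180 sets of 4 libraries (45 genes in 4 groups), 1 library stood apart from the rest by Dixon's test at the 95% level, which flags about 1 set in 20 by chance. CCNB1 stood at 248 CPM in truncation scramble replicate 3, against 258 to 260.2 CPM in the rest of its group. BUB1 stood at 176 CPM in WT knockdown replicate 2, against 157 to 159.9 CPM in the rest of its group. MAD2L1 stood at 148 CPM in WT knockdown replicate 2, against 131 to 133 CPM in the rest of its group. TTK stood at 48.1 CPM in truncation knockdown replicate 4, against 52.1 to 52.96 CPM in the rest of its group. INCENP stood at 141 CPM in WT scramble replicate 4, against 154 to 156 CPM in the rest of its group. MKI67 stood at 429 CPM in truncation scramble replicate 4, against 522 to 525 CPM in the rest of its group. WT knockdown replicate 2 was thus the outlying library for BUB1 and MAD2L1, high for both.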

How the results depend on the processing

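Of 300 alternative values for the counts of genes called and the medians of the 6 comparisons, 290 kept within 1.5 times the count or within the spread between libraries of the median, 10 moved and none changed direction. Under upper-quartile scaling the member median was -0.28 for truncation in scramble cells, -0.30 for knockdown in truncation cells and -0.26 for the interaction, and 18 genes were called below 0 in the interaction. All other alternatives of scaling, filter and tool kept every count and median in those limits. The cause was not tested. With 1 library left out, the median for knockdown ranged from -0.42 to -0.37 in truncation cells and from -0.12 to -0.045 in WT cells, where 3 to 5 genes were called higher. Genes called lower then numbered 26 to 32 for truncation in scramble cells, 11 to 19 for knockdown in WT cells, 42 to 43 for both changes and for truncation in knockdown cells, 40 to 43 for knockdown in truncation cells, and 19 to 29 for the interaction. Values of the fit with all libraries lay outside 2 of these ranges. They were the median of -0.36 for knockdown in truncation cells and the 33 genes lower for truncation in scramble cells. Without WT knockdown replicates 2 and 3, the median for knockdown in WT cells was -0.12 and 17 genes were called lower there, with 24 below 0 in the interaction. Without WT scramble replicate 4, the library with PTPRC counts, 42 genes were called lower for both changes and 25 in the interaction.

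Same-numbered libraries were checked for pairing. Their deviations from the group means had correlations of -0.173 to 0.263 over 24 pairs, of which 6 were above 0.1, and 10 of 24 correlated best with their own number, where equal odds among the 4 numbers would give 6. All 6 pairs of replicate 3 were above 0 (0.0571 to 0.233). Since not every pair was above 0.1, the libraries were not treated as paired. With the number as a replicate block, genes called lower were 32 for truncation in scramble cells, 15 for knockdown in WT cells, 43 for both changes, 42 for truncation in knockdown cells, 41 for knockdown in truncation cells and 30 for the interaction. The block ended the call of INCENP with truncation in scramble cells (adjusted p = 0.0533), and under it CENPE was called higher with knockdown in WT cells (0.0449), KIF18A lower for both changes (0.0498) and BUB1B and ECT2 below 0 in the interaction (0.0434 and 0.0319), all as edgeR's adjusted p. PRC1 had the fewest counts of the members, 26 to 73 a library, and shares 57.6% of its exon bases with another gene on the same strand.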
